A study of Mus musculus with 6 samples.

Results

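Plexins, neuropilins and semaphorins form one guidance receptor and ligand system, and its transcripts were followed here in mouse spleen cells sorted as macrophages, with or without a label carried by human mesenchymal stromal cells (MSCs). The genes were chosen by symbol from the deposited table of estimated counts: plexins, neuropilins, semaphorins of classes 3 to 7 and the plexin domain containing genes Plxdc1 and Plxdc2. Of 21847 genes in the table, 34 qualified. They comprise 9 plexins and 2 neuropilins (11 receptors), 20 semaphorins (the ligands), the 2 plexin domain containing genes and 1 antisense transcript, Plxna4os1. A summed count of at least 60 over the 6 libraries chose the genes that were tested, and 25 reached it (10 receptors, 12 semaphorins, Plxdc1, Plxdc2 and Plxna4os1). Just inside that minimum lay Sema6c with 86, Plxna4 with 87 and Sema3g with 94 counts, and just outside it lay Sema4g with 59 and Plxnb1 with 55. Of the genes called below, 4 reached the minimum through the group in which they were higher and not through the other, namely Plxna2, Sema5a, Sema4f and Sema3g, and Sema3f and Plxna4, which were not called, reached it through Qneg alone. Counts and medians over the tested genes therefore describe those genes and not the family.

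The study compared 3 RNA-seq libraries of Qtracker positive cells (Qpos) with 3 of Qtracker negative cells (Qneg), sorted from the same co-cultures. Both groups came from splenocytes depleted of T cells and kept for 3 days on fibronectin with MSCs from human cord tissue. The MSCs carried Qtracker, a quantum dot label, so a positive mouse cell is one that holds label, and the sources take this as engulfment of MSC material. The sort gate is given as CD11b+ Ly6G- in one label and as CD11b+ Ly6C- in another. Qneg cells shared the culture with the MSCs and are therefore not unexposed cells. The sources used here do not name the mouse strain, the age or the number of animals. The replicates are described as paired and biological without being tied to separate mice. The main test compares Qpos with Qneg within pairs, so its p-values reflect spread of that difference over 3 pairs. Part of that spread may be technical.

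Semaphorins are secreted or membrane-bound proteins that steer cell shape and movement. Plexins are their transmembrane receptors and act through small GTPases, while neuropilins lack a catalytic cytoplasmic domain and serve as co-receptors for class 3 semaphorins and for members of the VEGF family. In myeloid cells and lymphocytes the same proteins are known for roles in migration, dendritic cell and T cell contact and osteoclast formation.

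Library totals were 33943090 to 55506993 estimated counts. A first principal component with 66.4% of the variance separated Qpos from Qneg, and a second with 18.6% separated replicate 1 of both groups from replicates 2 and 3, with Qneg replicate 1 farthest out. Of the sort markers, Ly6g and Ly6c2 were lower in Qpos in all 3 pairs, whereas Itgam did not follow the label evenly. The log2 fold change was -7.36 ± 1.16 for Ly6g (SE, edgeR adjusted p = 0.0225) and -1.99 ± 0.13 for Ly6c2 (edgeR adjusted p = 0.0074). Itgam (CD11b) had 2715, 1821 and 1839 counts scaled to library size (CPM) in Qpos, against 259, 2267 and 2210 CPM in Qneg, so Qneg replicate 1 held the least. Summed CPM of 7 macrophage markers was 26438 to 34562 in Qpos, against 1193, 14999 and 14843 in Qneg. Lyz2 and Itgam, which neutrophils also express, made up most of that sum, and the other 5 markers summed to 4384, 5543 and 5599.6 CPM in Qpos, against 223, 1236 and 1207 CPM in Qneg. Summed neutrophil markers were 194 to 644 CPM in Qpos and 2284, 63108 and 63250 CPM in Qneg, and summed B cell markers were 671 to 747 CPM in Qpos and 17011, 6964 and 7034 CPM in Qneg. Every Qneg library thus held a higher sum of B cell or neutrophil markers than of macrophage markers, which goes against calling it a macrophage library, and it is called by its sort label here. Results are given with and without replicate 1 where it matters.

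Receptor transcripts were higher in Qpos and several semaphorin transcripts were lower. Of the 25 tested genes, 9 rose in Qpos, where 18.3% of all 14804 genes tested rose, and 5 fell, where 16.0% of all genes fell (quasi-likelihood test of edgeR blocked on replicate, adjusted after Benjamini and Hochberg, called at an adjusted p under 0.05). The rises were in 7 of 10 receptors (Plxna1, Plxna2, Plxnb2, Plxnb3, Plxnd1, Nrp1 and Nrp2), Plxdc1 and Plxna4os1, and no receptor fell. All 5 falls were in semaphorins (Sema4f, Sema7a, Sema5a, Sema3g and Sema6d, of 12 tested), and no semaphorin rose. At an unadjusted p under 0.05, which 25.7% of all genes passed as higher and 24.5% as lower, 0 receptors were lower and 1 semaphorin was higher (Sema4b), and neither DESeq2 nor limma-voom, which called 48.1% and 39.8% of all genes in either direction, called a receptor lower or a semaphorin higher. The median log2 fold change was 3.03 over the 10 receptors and -1.99 over the 12 semaphorins, beside -0.01 over all genes tested. The semaphorin value includes Sema3f, Sema3g, Sema4f and Sema5a, which reached the count minimum through Qneg alone. It was -1.21 over the semaphorins with at least 50 counts in 3 libraries, a filter that dropped Sema3f, Sema3g and Sema6c. Sema4f (-6.78), Sema5a (-3.40) and Sema6d (-3.115) passed that filter through Qneg alone, so -1.21 is not free of genes admitted in this way. The receptor median was 2.92, 2.74 and 2.60 in pairs 1, 2 and 3, and the semaphorin median was -1.06, -1.61 and -2.66. Qpos and Qneg libraries did not overlap for 8 receptors that were higher in Qpos, where 29.7% of all genes were so separated. They did not overlap either for 1 receptor (Plxna4) and 5 semaphorins that were lower in Qpos, where 29.1% of all genes were. In bulk libraries, fewer cells of a type and less RNA per cell cannot be told apart.

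The calls depended on which replicates were fitted. Without replicate 1 the same test called 73.0% of all genes in either direction and kept all 14 called genes, the highest adjusted p being 0.00105 for Sema3g. It also called Plxnc1, Sema4b and Sema4d higher and Plxna4, Plxdc2, Sema4a and Sema6b lower, so in that fit 1 receptor fell and 2 semaphorins rose. Without replicate 2 it called 2.13% of all genes and kept 3 of the 14 (Plxna1, Nrp2 and Sema7a), the others having adjusted p of 0.0520 to 0.171. Without replicate 3 it called 0.547% of all genes and kept Plxna1 alone, the others lying at 0.0564 to 0.186. In that last set no semaphorin fall passed, with 9 rises and 4 falls among the 25 genes at an unadjusted p under 0.05, which 14.1% of all genes passed as higher and 14.6% as lower. DESeq2 on the same reduced sets called 22.0% of all genes without replicate 2 and 21.4% without replicate 3 and kept 13 of the 14 each time, losing Sema3g. By limma-voom, which called 10.4% of all genes without replicate 2 and 7.74% without replicate 3, 9 of the 14 were kept each time and Plxna4os1, Sema3g, Sema5a, Plxna2 and Plxnb3 were lost. No called gene changed direction in any of these fits.

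**Figure D1:**
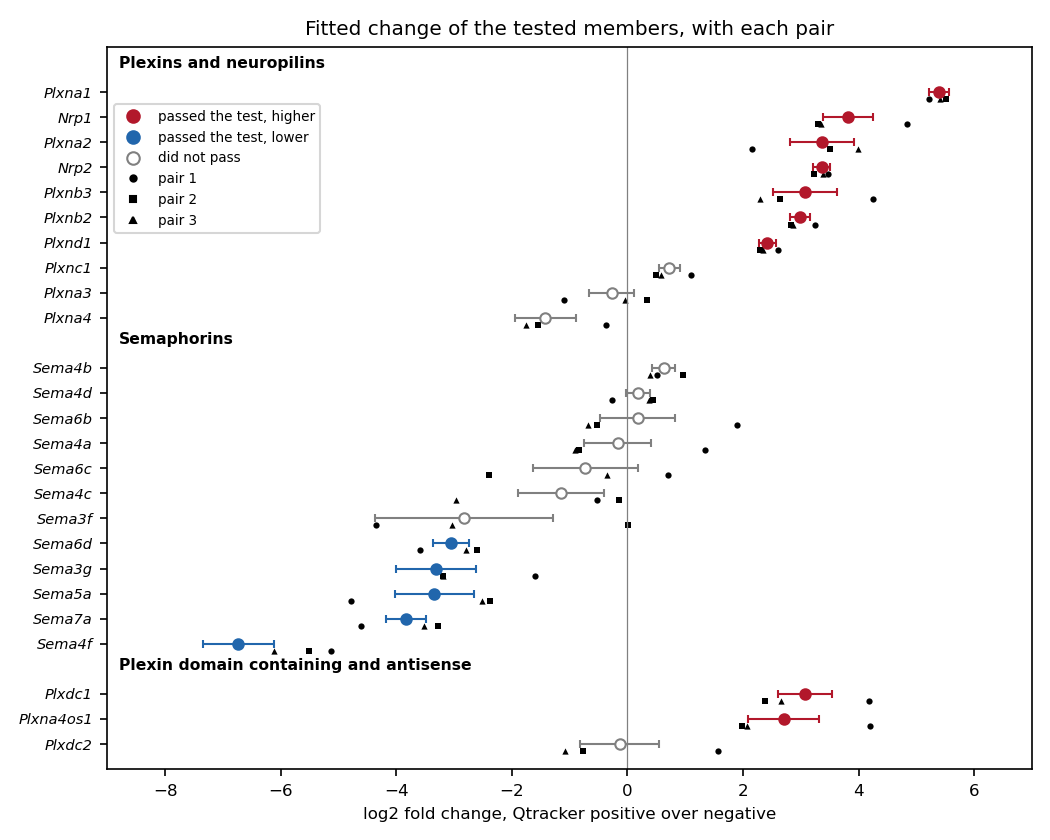
Log2 fold change of Qtracker positive over negative libraries for the 25 tested genes, grouped by role; large symbols with bars are the fitted value and its SE, and small black symbols are the 3 pairs. Plxna1 (5.39), Nrp1 and the other receptors that passed lie to the right of 0 in all 3 pairs, and the 5 semaphorins that passed lie to the left.

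The class A plexins pair with neuropilins to receive class 3 semaphorins and bind class 6 semaphorins directly. Plxna1 (chr6:89316314-89362620, minus strand; here and below GENCODE M21, GRCm38), which in mouse dendritic cells and osteoclasts is a Sema6D receptor, had 667, 731 and 689.7 CPM in Qpos, against 17.8, 15.9 and 16.1 CPM in Qneg (replicates 1 to 3 throughout). All Qpos libraries lay far above all Qneg libraries, and within each group the 3 libraries were close, replicate 1 included. The means were 696 ± 32.5 CPM in Qpos and 16.6 ± 1.03 CPM in Qneg (SD, n = 3 each), which is 41.9-fold and a log2 fold change of 5.39 ± 0.17 (SE, edgeR adjusted p = 0.0060). Plxna2, a receptor of Sema6A in the nervous system, was scarce, with 2.59, 3.75 and 4.06 CPM in Qpos, against 0.549, 0.291 and 0.215 CPM in Qneg. Its groups did not overlap, but Qneg rested on 24, 13 and 10 counts, and the log2 fold change was 3.36 ± 0.55 (edgeR adjusted p = 0.0241). On the authors' normalized counts the Plxna2 value was 2.33 and its call was lost (limma adjusted p = 0.0668). Plxna3, the usual partner of Nrp2 for Sema3F, did not pass (log2 fold change -0.27 ± 0.39, edgeR adjusted p = 0.613). Plxna4, the partner of Nrp1 for Sema3A, had 23 counts over the Qpos libraries and 64 over the Qneg libraries and did not pass either (-1.42 ± 0.54, edgeR adjusted p = 0.113), though without replicate 1 it was called lower at -1.90 (adjusted p = 0.0130).

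Class B plexins are receptors of class 4 semaphorins, except that plexin B3 binds Sema5A. Plxnb2 (chr15:89155549-89180788, minus strand), also known as a receptor of angiogenin, had 675, 743 and 738 CPM in Qpos, against 71.5, 104 and 101 CPM in Qneg. No library of either group came near the other group, and Qneg replicate 1 was the lowest of all. The log2 fold change was 2.98 ± 0.17 (edgeR adjusted p = 0.0069). Plxnb3 had 5.15, 8.07 and 8.46 CPM in Qpos, against 0.229, 1.25 and 1.70 CPM in Qneg. Replicate 1 was again the lowest library of each group, and the log2 fold change was 3.07 ± 0.55 (edgeR adjusted p = 0.0277), with pairs at 4.25, 2.64 and 2.29. Plxnb1, the high-affinity receptor of Sema4D, stayed under the minimum with 5 counts over the Qpos libraries and 50 over the Qneg libraries. Per kilobase of annotated exon, the mean level in Qpos was 93.1 CPM for Plxnb2 and 1.11 CPM for Plxnb3, against 11.9 and 0.163 CPM in Qneg for the same genes.

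Plxnd1 and Plxnc1 are the single members of their classes. Plxnd1 (chr6:115954811-115995005, minus strand), a receptor of Sema3E that needs no neuropilin and is best known from blood vessel patterning, had 445, 513 and 476 CPM in Qpos, against 73.0, 104 and 94.2 CPM in Qneg. The groups did not overlap, and the log2 fold change was 2.42 ± 0.15 (edgeR adjusted p = 0.0072). Plxnc1, the receptor of Sema7A and of viral semaphorins, had 293, 263 and 276 CPM in Qpos, against 137, 187 and 184 CPM in Qneg. All Qpos libraries were above all Qneg libraries, but by a smaller step than for the plexins above, and the log2 fold change of 0.72 ± 0.18 missed the threshold (edgeR adjusted p = 0.0515). It passed without the replicate block (adjusted p = 0.0222, where 39.6% of all genes passed), by DESeq2 (0.0117), by limma-voom (0.0412), on the authors' normalized counts (0.0393, where 33.6% passed) and without replicate 1 (0.000184). It did not pass without replicate 2 (0.197), without replicate 3 (0.239) or on library totals (0.114, log2 fold change 0.37). Nor did it pass by edgeR with median-of-ratios or upper quartile factors or with any other count filter. With replicates 2 and 3 summed, no tool called it, and DESeq2 and limma-voom did not call it without replicate 2 or without replicate 3. For the 5 plexins that passed, adjusted p was 0.0447 to 0.107 without replicate 2 and 0.0498 to 0.113 without replicate 3, where Plxna1 alone kept its call.

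Both neuropilins rose in Qpos. Nrp1 (chr8:128358604-128503363, plus strand), co-receptor of Sema3A and of VEGF-A, had 385, 487 and 513 CPM in Qpos, against 13.5, 49.5 and 50.1 CPM in Qneg. Nrp2 (chr1:62703285-62818695, plus strand), co-receptor of Sema3F and of VEGF-C, had 519, 463 and 467 CPM in Qpos, against 46.9, 49.1 and 44.8 CPM in Qneg. The groups were apart for both genes, but Qneg replicate 1 was low for Nrp1 and level with the other Qneg libraries for Nrp2. The log2 fold change was 3.82 ± 0.43 for Nrp1 (edgeR adjusted p = 0.0139), with pairs at 4.83, 3.30 and 3.35, and 3.36 ± 0.14 for Nrp2 (edgeR adjusted p = 0.0060), with pairs at 3.47, 3.23 and 3.38. Without replicate 1, Nrp1 stood at 3.33 and Nrp2 at 3.31. Adjusted p was 0.0545 for Nrp1 and 0.0476 for Nrp2 without replicate 2, and 0.0629 and 0.0564 for the same genes without replicate 3.

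**Figure D2:**
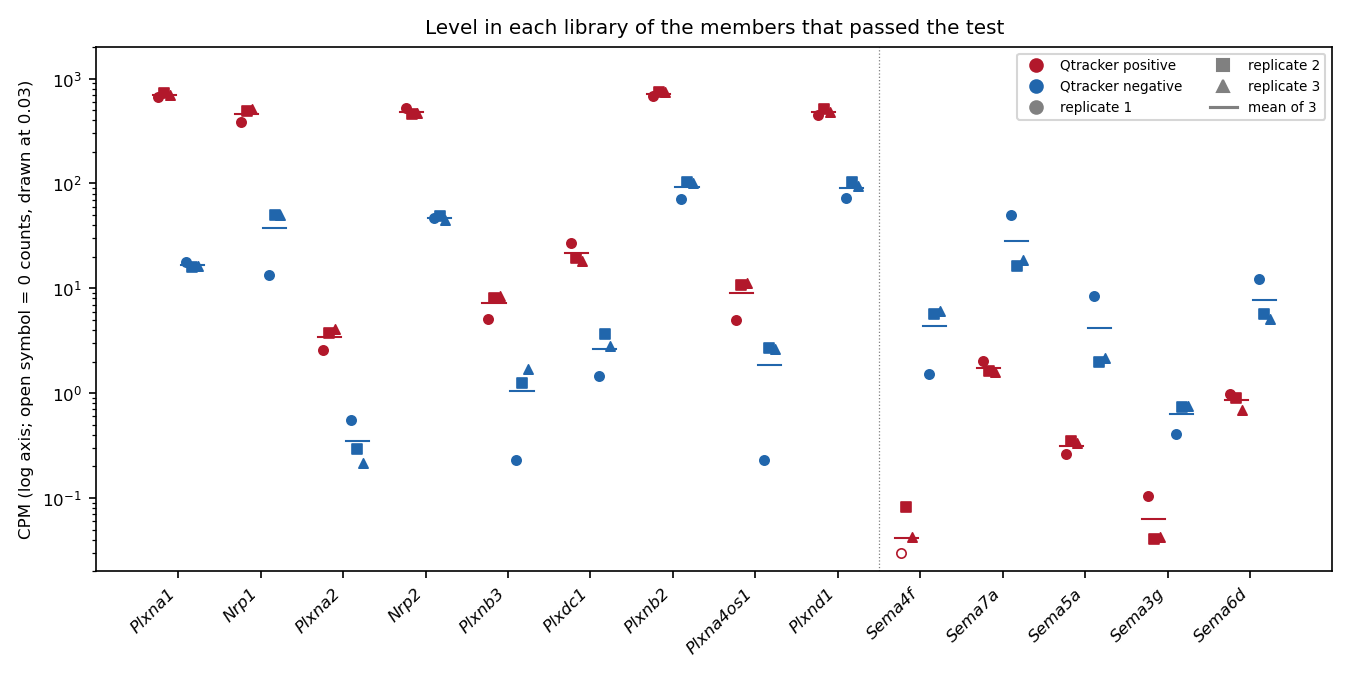
CPM (log axis) in each of the 6 libraries for the 14 genes that passed the test, with rises left and falls right of the dotted line; symbols mark the replicate, bars the mean of 3, and the open symbol a library with 0 counts. No gene has overlapping groups, and Qneg replicate 1 lies apart from Qneg replicates 2 and 3 in genes such as Nrp1, Sema7a and Sema4f.

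To describe the sequence at the starts of these genes, windows of 300 bases (250 before and 50 after an annotated start, RefSeq, GRCm38.p6) were searched on both strands for 4 motifs. A window was found for 26 of the 34 genes, 37 windows in all, and none was found for Plxna1. The motif GGGCGG, the GC box, stood in 27 of the 37 windows, against 35.7% of 32851 mouse windows. CACGTG, the E-box of the MiT/TFE factors, stood in 3 (Sema3e, Sema4b and Sema6d), against 7.15% of mouse windows, and TGANTCA, the AP-1 site, in 3 (Sema4c, Sema4d and Sema6b), against 7.81%. GAGGAAGT, an ETS site of the PU.1 kind, stood in none of the 37, against 3.20% of mouse windows. GGGCGG sites can overlap one another, and a match describes letters only. The windows of both neuropilins and the upstream windows of Plxnb2 and of Sema6d are printed because they stand for genes that rose and for one that fell, with GGGCGG or its complement CCGCCC, and CACGTG in Sema6d, in capitals. They lie on GRCm38.p6 at chr8:128358823-128359122 (Nrp1, plus strand), chr1:62703067-62703366 (Nrp2, plus strand), chr15:89180739-89181038 (Plxnb2, minus strand) and chr2:124089719-124090018 (Sema6d, plus strand).
Nrp1: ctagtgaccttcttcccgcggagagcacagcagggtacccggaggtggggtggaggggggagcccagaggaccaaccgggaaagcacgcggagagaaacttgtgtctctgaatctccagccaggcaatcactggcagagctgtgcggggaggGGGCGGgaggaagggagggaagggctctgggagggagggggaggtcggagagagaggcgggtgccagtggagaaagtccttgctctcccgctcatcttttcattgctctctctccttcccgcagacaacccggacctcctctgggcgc
Nrp2: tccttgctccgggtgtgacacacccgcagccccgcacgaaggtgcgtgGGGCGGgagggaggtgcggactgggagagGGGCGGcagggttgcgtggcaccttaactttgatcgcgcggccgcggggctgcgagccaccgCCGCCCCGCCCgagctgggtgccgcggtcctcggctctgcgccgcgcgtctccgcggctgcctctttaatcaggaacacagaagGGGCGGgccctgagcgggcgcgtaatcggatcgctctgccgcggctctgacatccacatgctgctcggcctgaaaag
Plxnb2: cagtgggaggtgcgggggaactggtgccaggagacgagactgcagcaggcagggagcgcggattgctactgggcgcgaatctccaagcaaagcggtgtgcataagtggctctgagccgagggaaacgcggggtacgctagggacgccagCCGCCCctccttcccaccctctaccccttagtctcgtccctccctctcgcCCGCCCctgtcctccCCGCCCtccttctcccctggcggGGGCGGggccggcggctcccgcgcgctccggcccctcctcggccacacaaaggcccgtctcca
Sema6d: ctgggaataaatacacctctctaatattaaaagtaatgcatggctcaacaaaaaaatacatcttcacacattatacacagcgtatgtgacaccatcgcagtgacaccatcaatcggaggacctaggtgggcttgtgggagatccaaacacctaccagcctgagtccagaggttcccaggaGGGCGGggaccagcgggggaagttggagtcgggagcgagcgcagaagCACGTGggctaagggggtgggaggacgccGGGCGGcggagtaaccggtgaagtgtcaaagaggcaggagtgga
All 4 hold GGGCGG on at least 1 strand, and of the 4 the Sema6d window alone holds CACGTG.

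Of the 2 plexin domain containing genes, which are named for a sequence motif and are not semaphorin receptors, only Plxdc1 rose. Plxdc1, known as a tumour endothelial marker, had 27.2, 19.5 and 18.1 CPM in Qpos, against 1.46, 3.69 and 2.83 CPM in Qneg. The groups did not overlap, replicate 1 being the highest in Qpos and the lowest in Qneg, and the log2 fold change was 3.07 ± 0.46 (edgeR adjusted p = 0.0208). Plxdc2 had 7.56, 2.57 and 2.07 CPM in Qpos, against 2.52, 4.39 and 4.45 CPM in Qneg, so that its groups overlapped and its pairs pointed both ways (1.57, -0.76 and -1.08). It did not pass (-0.13 ± 0.68, edgeR adjusted p = 0.887) but was called lower without replicate 1 (-0.93, adjusted p = 0.00847). Plxna4os1, an antisense transcript at chr6:32511073-32515576 on the plus strand within Plxna4 (chr6:32144268-32588192, minus strand), had 4.94, 10.8 and 11.2 CPM in Qpos, against 0.229, 2.71 and 2.64 CPM in Qneg. Its log2 fold change was 2.70 ± 0.61 (edgeR adjusted p = 0.0428), 2.04 without replicate 1, and 2.27 without the replicate block, where the call was lost (adjusted p = 0.0804). Stranded libraries were made, but no source used here says whether reads were counted by strand. Plxna4os1 and Plxna4 may therefore share some reads. Over the Qpos libraries Plxna4os1 had 1249 counts and Plxna4 had 23, and the value of Plxna4 was lower in Qpos without passing. For Plxdc1 and Plxna4os1, adjusted p was 0.0589 and 0.10 without replicate 2, and 0.0763 and 0.114 without replicate 3.

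The 5 semaphorins that fell had lower mean levels than Sema4d and Sema4a in both groups. Sema7a (chr9:57940112-57962865, plus strand), a GPI-anchored semaphorin that acts through plexin C1 and integrin beta 1, had 2.01, 1.63 and 1.59 CPM in Qpos, against 50.1, 16.2 and 18.6 CPM in Qneg. Every Qneg library was above every Qpos library, and Qneg replicate 1 held the most. The log2 fold change was -3.83 ± 0.35 (edgeR adjusted p = 0.0108), with pairs at -4.61, -3.28 and -3.52. Sema6d (chr2:124089969-124667770, plus strand), the transmembrane ligand of plexin A1, had 0.978, 0.897 and 0.698 CPM in Qpos, against 12.2, 5.66 and 5.13 CPM in Qneg. Here too Qneg replicate 1 was the highest library, and the log2 fold change was -3.05 ± 0.31 (edgeR adjusted p = 0.0123). Sema5a (chr15:32244810-32696341, plus strand), a semaphorin with thrombospondin repeats and the ligand of plexin B3, had 0.264, 0.346 and 0.339 CPM in Qpos, against 8.52, 1.99 and 2.15 CPM in Qneg. The groups were apart, with Qneg replicate 1 standing well above replicates 2 and 3, and the log2 fold change of -3.34 ± 0.69 (edgeR adjusted p = 0.0354) was -2.58 without replicate 1.

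Sema4f and Sema3g showed the other order among the Qneg libraries. Sema4f (chr6:82911885-82939769, minus strand), a membrane semaphorin studied mostly in neurons, had 0, 4 and 2 counts in Qpos, against 66, 254 and 280 counts in Qneg. It was close to undetected in Qpos, and Qneg replicate 1 held the fewest Qneg counts. The fitted log2 fold change was -6.73 ± 0.61 (edgeR adjusted p = 0.0106) and -7.38 without replicate 2, a value that rests on the few Qpos counts. Sema3g, a secreted ligand of Nrp2 known from endothelium, had 4, 2 and 2 counts in Qpos, against 18, 33 and 35 counts in Qneg. Its groups did not overlap, and the log2 fold change was -3.32 ± 0.69 (edgeR adjusted p = 0.0360), or -4.08 without replicate 1. Over the 5 semaphorins that fell, adjusted p was 0.0479 (Sema7a) to 0.171 (Sema3g) without replicate 2, and 0.0606 to 0.186 for the same genes without replicate 3.

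The abundant semaphorins did not pass the test. Sema4d, also called CD100, a membrane ligand of plexins B1 and B2 and of CD72, had 332, 583 and 565 CPM in Qpos, against 398, 430 and 437 CPM in Qneg. Qpos replicate 1 lay below and Qpos replicates 2 and 3 above all Qneg libraries, and the log2 fold change was 0.18 ± 0.21 (edgeR adjusted p = 0.524). Sema4a, a ligand of plexin D1 that in mouse also binds Tim-2 on T cells, had 164, 231 and 219 CPM in Qpos, against 64.7, 414 and 414 CPM in Qneg. All Qpos libraries lay between Qneg replicate 1 and the other Qneg libraries, so the pairs were 1.34, -0.84 and -0.92 and the fitted value -0.17 ± 0.58 (edgeR adjusted p = 0.831). Sema6b, a class 6 ligand of plexin A4, had 45.2, 32.7 and 30.1 CPM in Qpos, against 12.1, 47.2 and 48.3 CPM in Qneg. It split as Sema4a did, with pairs at 1.90, -0.53 and -0.68 (0.18 ± 0.65, edgeR adjusted p = 0.842). Without replicate 1, Sema4a was called lower (-0.88, adjusted p = 2.39e-05), Sema6b was called lower (-0.61, adjusted p = 0.000557) and Sema4d was called higher (0.40, adjusted p = 0.000462), in a fit that called 73.0% of all genes.

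The other tested semaphorins were scarce and did not pass. Sema4b had 7.72 to 13.2 CPM in Qpos and 3.96 to 9.22 CPM in Qneg, and its log2 fold change of 0.62 ± 0.19 had an edgeR adjusted p of 0.0766, or 0.0145 without replicate 1. Sema4c, a ligand of plexin B2, stood at -1.15 ± 0.74 (edgeR adjusted p = 0.282), Sema6c at -0.73 ± 0.91 (0.558) and Sema3f, the ligand of Nrp2 with plexin A3, at -2.83 ± 1.55 (0.222, against 0.0448 by DESeq2). Sema3f had 0, 21 and 2 counts in Qpos, so its spread within Qpos was wide. Under the minimum and therefore untested were Sema4g (59 counts over the 6 libraries), Plxnb1 (55), Sema3a (22), Sema3c (22), Sema3d (18), Sema6a (17), Sema3b (12), Sema3e (9) and Sema5b (2). Class 3 transcripts, the secreted ligands that neuropilins bind, were thus near the limit of detection: of 7 class 3 genes, Sema3f and Sema3g alone reached 60 counts, and the other 5 have too few counts to be compared here. In a fit with no filter on counts, 1 of the 9 genes under the minimum was called, Plxnb1 as lower (-3.15, edgeR adjusted p = 0.0383).

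Per kilobase of annotated exon, receptor transcripts led in Qpos and Sema4a and Sema4d led in Qneg. In Qpos the order of mean level was Plxnb2 with 93.1 CPM per kb, Plxna1 with 76.8, Plxnd1 with 65.4, Sema4d with 64.2, Nrp1 with 47.2, Nrp2 with 40.8, Sema4a with 37.9 and Plxnc1 with 33.2. In Qneg it was Sema4a with 55.02 CPM per kb, Sema4d with 54.9, Plxnc1 with 20.3, Plxnd1 with 12.4, Plxnb2 with 11.9, Sema6b with 9.04 and Sema7a with 8.59, while Nrp2 had 3.97, Nrp1 3.85 and Plxna1 1.83. Several neighbours in these orders differed by less than their SD over 3 libraries: Plxnd1 (SD 4.68) and Sema4d (SD 18.2) in Qpos, Nrp1 (SD 6.91) and Nrp2 (SD 2.64) in Qpos, and Sema4a (SD 37.3) and Sema4d (SD 2.69) in Qneg.

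**Figure D3:**
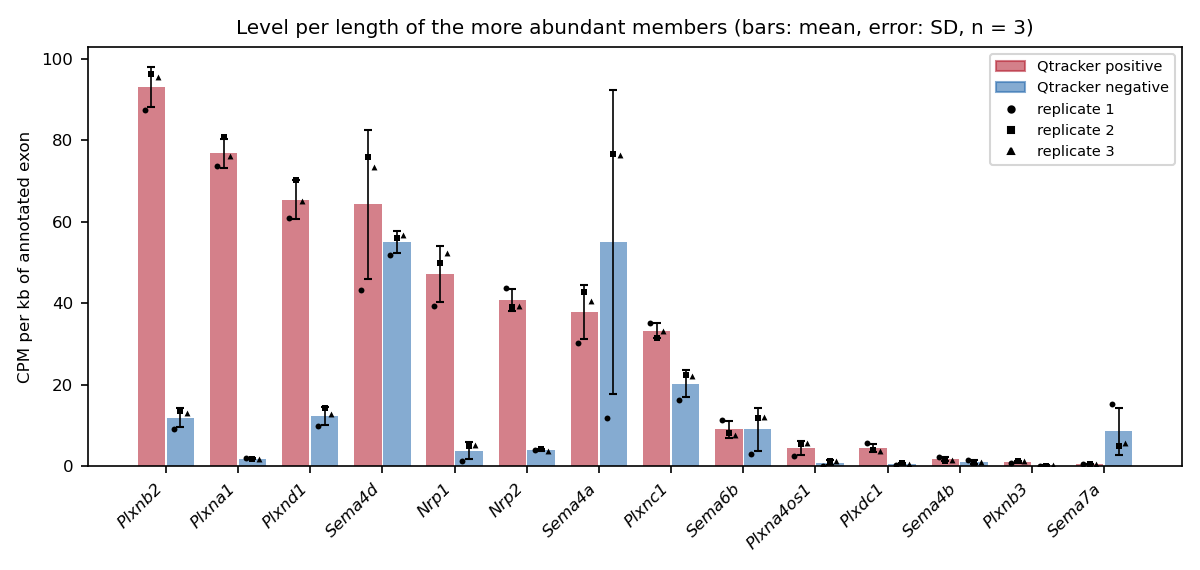
Mean level in CPM per kb of annotated exon for 14 of the more abundant genes, Qtracker positive bars left of Qtracker negative ones, with SD over 3 libraries and each library as a symbol. Plxna1 stands at 76.8 against 1.83, while Sema4d stands at 64.2 against 54.9.

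Summed over the 11 receptors, the level was 2994, 3214 and 3175 CPM in Qpos, against 368, 514 and 496 CPM in Qneg. Over the 20 semaphorins it was 563, 861 and 826 CPM in Qpos, against 565, 931 and 942 CPM in Qneg. Receptor sums were apart between the groups, and semaphorin sums overlapped, since Sema4d and Sema4a made up most of them. The make-up of the receptor sum per kilobase differed too: Plxna1 held 21.4% of it in Qpos and 3.34% in Qneg, whereas Plxnc1 held 9.28% in Qpos and 36.9% in Qneg. Within the semaphorin sum per kilobase, Sema4d held 56.2% in Qpos and 41.7% in Qneg.

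Set beside their known partners, receptor and ligand moved in opposite directions in 3 textbook pairs in which both passed: Plxna1 (log2 fold change 5.39) with Sema6d (-3.05), Plxnb3 (3.07) with Sema5a (-3.34), and Nrp2 (3.36) with Sema3g (-3.32). Sema5a and Sema3g reached the count minimum through Qneg alone, which favoured their entry as falls, and these pairs were picked after their values were seen. In others one side did not pass, as for Plxnc1 (0.72) with Sema7a (-3.83), Plxnb2 (2.98) with Sema4d (0.18), and Plxnd1 (2.42) with Sema4a (-0.17). Nrp1 and Plxnd1 rose while their ligands Sema3a and Sema3e were untested, with 22 and 9 counts over all libraries. Among tested non-semaphorin ligands of neuropilins, Vegfb (2.27) and Tgfb1 (0.88) rose as Nrp1 (3.82) did. Hgf (-2.32) fell, and Vegfa and Pgf did not pass.

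Other genes of the pathway, given from lists of 64 genes of which 56 were tested, showed 13 rises (23.2%) and 12 falls (21.4%), shares near the 18.3% and 16.0% of all genes, with a median log2 fold change of 0.28. Among 12 tested co-receptors 3 rose and 2 fell. Itgb1, the integrin beta 1 chain through which Sema7A signals, rose by 1.66 ± 0.16 (edgeR adjusted p = 0.0114), and Kdr, the VEGF receptor that works with Nrp1, by 4.40 ± 0.50 (0.0141). L1cam, a neuronal partner of Nrp1, fell by 2.55 ± 0.16 (0.0073). Trem2, which with Tyrobp (DAP12) forms the plexin A1 complex in mouse dendritic cells, had 789.7, 695 and 687 CPM in Qpos, against 15.7, 86.1 and 87.1 CPM in Qneg. It rose by 3.82 ± 0.74 (edgeR adjusted p = 0.0321), whereas Tyrobp, at 910.0, 923 and 962 CPM in Qpos and 78.6, 542 and 545 CPM in Qneg, did not pass (1.65 ± 0.73, adjusted p = 0.154). Cd72, the B cell receptor of Sema4D, had 11.9 to 21.2 CPM in Qpos and 60.04 to 218 CPM in Qneg without passing (-2.43 ± 0.68, edgeR adjusted p = 0.0638). Trem2, Tyrobp and Cd72 are named outside the rule for pathway genes, after their values were seen.

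Of 5 tested non-semaphorin ligands of neuropilins, Vegfb (2.27 ± 0.11, edgeR adjusted p = 0.0063) and Tgfb1 (0.88 ± 0.14, 0.0226) rose, and Hgf fell by 2.32 ± 0.25 (0.0128). Of 19 GTPases and exchange factors that plexins act through or bind, 4 rose and 3 fell. Rac2, the haematopoietic Rac, fell by 1.70 ± 0.20 (edgeR adjusted p = 0.0146), and Farp1, an exchange factor, fell by 4.76 ± 0.48 (0.0119). R-Ras is a substrate of the plexin GAP domain, and its gene Rras rose by 0.92 ± 0.13 (edgeR adjusted p = 0.0180). Of 16 cytoplasmic effectors 2 rose and 6 fell, among them Limk2, a kinase of cofilin (by 1.51 ± 0.10, edgeR adjusted p = 0.0077), Mical1, a flavoenzyme that oxidises actin (by 1.59 ± 0.11, 0.0080), and Dpysl5, a collapsin response mediator (by 3.87 ± 0.36, 0.0108). Of 4 proteases known to cut semaphorins or their receptors, Adam17 rose by 1.24 ± 0.14 (edgeR adjusted p = 0.0139) and Mmp14 by 3.58 ± 0.55 (0.0217), and none fell. Over all pathway genes, 27 rises and 23 falls were called without replicate 1, where 37.2% of all genes rose and 35.8% fell. Without replicate 2, edgeR called 0 of either kind, where it called 2.13% of all genes. At an unadjusted p under 0.05 it had 11 rises and 11 falls, beside 4480 of all 14802 genes in either direction. DESeq2, which called 10.2% of all genes higher and 11.8% lower, gave 10 rises and 9 falls. By limma-voom, which called 10.4% of all genes, there were 5 of each. Without replicate 3, edgeR again called 0, where it called 0.547% of all genes. Unadjusted, it had 11 rises and 12 falls, beside 14.1% of all genes higher and 14.6% lower. DESeq2, with 9.82% of all genes higher and 11.6% lower, gave 10 rises and 10 falls. By limma-voom, which called 7.74% of all genes, there were 4 rises and 2 falls.

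Markers of other cells moved with these results in both directions. All 7 neutrophil, 6 B cell, 6 T cell and 4 basophil and mast cell markers tested fell in Qpos, as did 4 of 5 dendritic cell, 2 of 5 NK cell and 2 of 4 plasma cell markers, where 16.0% of all genes fell. Among rises, which 18.3% of all genes showed, were 3 of 7 macrophage markers (Adgre1, Cd68 and Mertk), 2 of 4 eosinophil markers (Epx by 3.82 and Prg2 by 2.69, log2) and 2 of 5 megakaryocyte and platelet markers (Pf4 by 5.34 and Ppbp by 4.72). The other 2 eosinophil markers and Itga2b of the platelet list fell, and Gp9 (-2.27) and Gp1bb (-3.49) of the platelet list were lower without passing. Summed eosinophil markers were 79.5, 308 and 242 CPM in Qpos, against 23.97, 49.6 and 51.0 CPM in Qneg, and summed megakaryocyte and platelet markers were 689, 111 and 137 CPM in Qpos, against 26.6, 61.0 and 58.8 CPM in Qneg. These 2 sums were higher in every Qpos library, as were the receptor sum and the macrophage sum, with Qpos replicate 1 far above the others in platelet markers. In Qpos the 2 sums came mostly from Epx and Prg2 and from Pf4 and Ppbp. Summed T cell markers were 4.55 to 8.32 CPM in Qpos and 107, 23.01 and 24.7 CPM in Qneg. Summed dendritic cell markers were 15.2 to 19.0 CPM in Qpos and 413, 131 and 139 CPM in Qneg. Ccr7 made up most of the dendritic cell sum in every library, with 353, 106 and 113 CPM in Qneg. Cd209a was at 0 in all Qpos libraries and in Qneg replicates 1 and 2. Mean levels of Xcr1 (untested) and Clec9a (not called) were higher in Qpos, at 0.157 and 0.484 CPM, against 0.103 and 0.376 CPM in Qneg. Qneg replicate 1, the library highest in B cell, T cell and dendritic cell markers, was also the highest in Sema7a, Sema5a and Sema6d. Within Qneg it was the highest too in Plxna1, Plxna2, Plxna3, Sema3f, Sema4b and Sema4c, of which Plxna1 and Plxna2 rose in Qpos. Within Qneg it was the lowest in neutrophil and macrophage markers and also in Sema4f, Sema3g, Sema4a, Sema6b and Nrp1. The same library was the lowest of Qneg in Plxnb2, Plxnb3, Plxnc1, Plxnd1, Plxna4, Plxdc1, Plxdc2, Plxna4os1, Sema4d and Sema6c. Of 4 tested endothelial markers Kdr and Vwf rose and Pecam1 fell, with summed levels of 76.9 to 81.6 CPM in Qpos and 119 to 212 CPM in Qneg and with Emcn at 0 in Qpos. Pecam1 made up most of the endothelial sum in Qneg, and Kdr and Vwf most of it in Qpos. Mesenchymal stromal markers summed to 3.66 to 4.32 CPM in Qpos and 7.81 to 32.1 CPM in Qneg, and none of 6 tested rose. Col5a1 made up most of the latter sum in Qneg, with 5.17, 26.2 and 26.3 CPM, and had 0.306 to 0.423 CPM in Qpos. Col1a2, Col3a1, Pdgfra and Postn had higher mean levels in Qpos, all of them low. The part of these marker shifts in the plexin, neuropilin and semaphorin results was not tested.

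**Figure D4:**
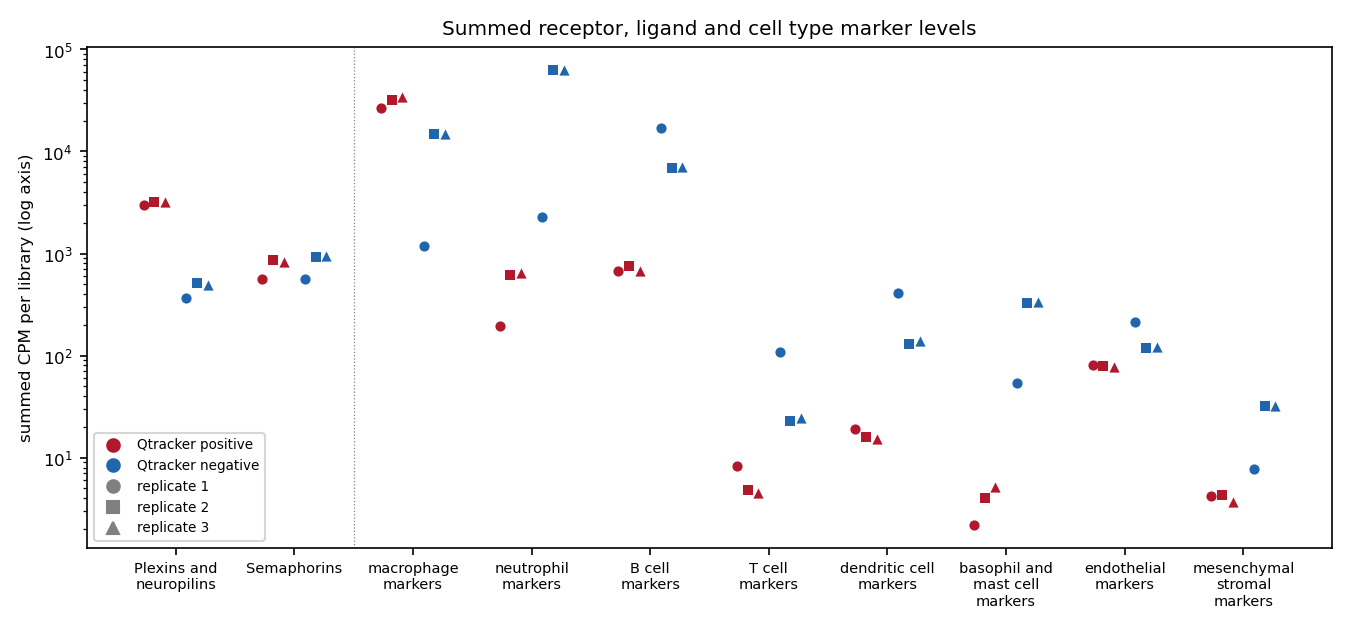
Summed CPM (log axis) in each library of the receptors, the semaphorins and 8 marker lists, Qtracker positive left of Qtracker negative, with symbols for the replicate. The receptor sum is 2994 to 3214 in Qtracker positive and 368 to 514 in Qtracker negative libraries, and replicate 1 of the negative group stands apart in the neutrophil, macrophage, B cell, T cell and dendritic cell lists.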

How the data were processed

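Per the labels' protocols, cells were stained and sorted, RNA was purified with a column kit and stranded libraries were made. FastQC, Salmon and mm10 are named in the submitters' processing notes without versions. The authors deposited a table of expected counts, estimated per gene and already whole numbers (21847 genes). They also deposited normalized counts, a signal whose formula no source used here gives and whose ratio to the estimated count differs by gene and library. Transcripts of near-identical sequence may share estimated counts.

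Genes with a summed count of at least 60 over 6 libraries (14804) were scaled by TMM and fitted in edgeR 4.0.16 (R 4.3.3) with a quasi-likelihood model blocked on replicate. Calls used p-values adjusted over all genes tested (Benjamini-Hochberg, under 0.05). SEs were derived from the F statistic, and pair values used a prior count of 2. CPM were computed on TMM-scaled totals, and levels per kilobase used annotated exon length (GENCODE M21). Depth (33943090 to 55506993 counts) limited the genes with few counts. For the others the spread of the Qpos to Qneg difference over the pairs set the precision.

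The pairing comes from the series' design text. Same-numbered libraries had deviations that correlated at 0.21, 0.084 and 0.16, against up to 0.152 for other pairs, so the data alone would not have shown it. Alternatives were other scalings and filters, no block, DESeq2 1.42.0, limma-voom 3.58.1, the authors' normalized counts with limma on log2(value + 1), and leaving out or summing replicates. DESeq2 and limma-voom on the reduced sets were added after seeing the data. Every member with at least 60 counts is named, as are from each pathway list at most the 3 genes of lowest p, beside exceptions that the text marks. Single marker genes other than the sort genes are named outside that rule, after their values were seen. The members and lists were chosen with earlier results of these data known. The scripts were tested on simulated data. Sema4e is not analysed here.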

Additional observations from a re-analysis of the deposited data

How the results depend on the processing

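The 9 rises and 5 falls were 9 or 10 rises and 4 to 6 falls under the other scalings, filters, tests and units. Of all genes tested, 10.6% to 23.2% rose and 9.20% to 24.9% fell under those settings. The filter of at least 50 counts in 3 libraries left no value for Plxna4, Sema3f, Sema3g and Sema6c. It kept Sema4f, Sema5a and Sema6d, which passed it through Qneg alone. Without the replicate block there were 9 rises and 5 falls, with Plxna4os1 lost and Plxnc1 gained, and the median log2 fold change of the receptors was 2.86, against 3.03 with the block. That median was 2.69 on library totals, where the median of all genes was -0.36, and 2.79 on the authors' normalized counts. The semaphorin median of -1.99 was -1.21 with the filter of at least 50 counts in 3 libraries, -1.34 without the replicate block, -1.60 by limma-voom, -2.35 on library totals and -2.35 to -1.48 without 1 replicate by edgeR. Without 1 replicate, edgeR gave 1 to 12 rises, 0 to 9 falls and a receptor median of 2.67 to 3.13. For pathway genes it gave 0 to 27 rises and 0 to 23 falls. Of all genes, 0.223% to 37.2% rose and 0.324% to 35.8% fell in those fits, so these counts moved with the share called in the whole table. Without replicate 1, where 59.8% of all genes were called by DESeq2 and 74.9% by limma-voom, DESeq2 gave 8 falls, 25 pathway rises, 20 pathway falls and a receptor median of 2.65, and limma-voom gave 9, 27, 22 and 2.66 for the same results. Without replicate 2 or 3, limma-voom, which called 10.4% and 7.74% of all genes, gave 3 falls each time. It gave 5 and 4 pathway rises and 5 and 2 pathway falls. With replicates 2 and 3 of a group added together as 1 library, edgeR called 0 rises and 0 falls (9 and 5 at an unadjusted p under 0.05) and 0 pathway genes (11 rises and 11 falls unadjusted), beside 0 of all 14804 genes (14.6% higher and 14.9% lower unadjusted). On the same libraries limma-voom, with 10.3% of all genes, called 6 rises, 3 falls, 5 pathway rises and 5 pathway falls, and DESeq2, with 23.2% of all genes, called 9, 4, 10 and 11 for the same results. The cause was not tested.

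No called gene reversed. Among genes not called, the log2 fold change without 1 replicate, by edgeR, was -0.88 to 0.25 for Sema4a, -0.61 to 0.68 for Sema6b, -1.49 to 0.19 for Sema6c, -0.59 to 0.15 for Plxna3 and -0.93 to 0.40 for Plxdc2. By DESeq2 and limma-voom, Sema4a was 0.19 and 0.33 without replicate 2, 0.22 and 0.35 without replicate 3. Plxdc2 was 0.22 and 0.31 without replicate 2 and 0.38 and 0.43 without replicate 3, Sema6b was -0.63 and -0.61 without replicate 1, Sema6c was 0.16 and 0.19 without replicate 2, and Plxna3 was 0.13 and 0.15 without replicate 1. With replicates 2 and 3 added together, edgeR, DESeq2 and limma-voom gave 0.23, 0.21 and 0.41 for Sema4a and 0.32, 0.30 and 0.19 for Plxdc2. Plxdc2 was 0.10 without the replicate block. On library totals Sema4d was -0.17 and Sema6b -0.16.

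Replicate 1 stood apart from replicates 2 and 3, and the share of all genes called was 73.0% without it and 2.13% without replicate 2. Counts under about 60 limit Plxnb1 and most class 3 semaphorins. The sort gate and the use of strand in counting are uncertain, and no label ties libraries to animals.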

Other observations

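In the deposited normalized counts, which were used as an alternative only, some members look different from the estimated counts. Sema4f had normalized counts of 0, 2.77 and 1.47 in Qpos, against 204, 193 and 206 in Qneg, where the estimated counts in Qneg were 66, 254 and 280. The authors' factor for Sema4f in Qneg replicate 1 raised it by 1.64 on the log2 scale, and after it Qneg replicate 1 no longer stood below replicates 2 and 3. Plxna2 moved the other way: its normalized counts were 88.6, 123 and 116 in Qpos, against 57.3, 15.03 and 9.90 in Qneg, where the estimated counts in Qneg were 24, 13 and 10.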
